A study of Mus musculus with 2 samples.

Results

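Endothelial cells line every blood vessel, and in a tumour they form the channels through which cancer cells are fed, immune cells arrive and tumour cells leave. New vessels grow when tip cells at the end of a sprout respond to vascular endothelial growth factor (VEGF), while Notch signals from the tip cell hold neighbouring stalk cells back. Mature vessels divide into arteries, capillaries, veins and, as a separate tree, lymphatic vessels, and lymph nodes (LNs) hold a special vein, the high endothelial venule (HEV), whose endothelial cells (HECs) carry sugar ligands that let lymphocytes in.

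The primary tumour endothelial cells described here were 52 of the 11856 cells of the primary tumour library that passed the cell limits, a share of 0.439% (exact Clopper-Pearson 95% interval 0.328% to 0.575%). They were chosen on measured values. Each had over 200 genes detected, at most 10% of its unique molecular identifiers (UMIs, one for each captured RNA molecule) in mitochondrial genes, at least 4 UMIs over Pecam1, Cdh5, Kdr and Flt1 with at least 2 of these 4 genes detected, at most 1 UMI of the leukocyte gene Ptprc, under 10 UMIs of the collagen genes Col1a1 and Col3a1 together, and under 30 UMIs of the keratin genes Krt8 and Krt18 together. The levels of these 9 genes therefore describe the choice and are no result.

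The study made 1 single-cell library from primary tumours and 1 from paired LNs, each pooled from 6 C57BL/6J mice, so there were 2 samples in all and no replicate of either tissue. Both came from mice carrying HEVM3, a derivative of the EO771 mouse mammary cancer line obtained by 3 rounds of selection for tumour cells that reach the lung through HEVs, and neither library had a tumour-free control. Per the study's methods the mice were wild-type females and the 2 tissues were digested with different enzymes, so tissue, digestion and library cannot be told apart. No test between the libraries was possible, and every interval below covers counting error only, not the spread between mice.

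The 52 cells held 357008 UMIs, with a median of 5716 UMIs per cell (lowest 703, highest 28726) and a median of 3.14% mitochondrial UMIs. Levels are given as UMIs of a gene per 1000000 summed UMIs of these cells (CPM) with exact Poisson 95% intervals, so that 1 UMI equals 2.80 CPM and the 3 UMIs used as the detection floor equal 8.40 CPM. A gene with no UMI among the 52 cells could therefore still have a level of up to 8.40 CPM by that floor. The deepest cell held 8.05% of all UMIs, so no single cell set the profile as a whole.

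Cells near the limits were few. One cell, with 1902 UMIs, had exactly 4 UMIs over the 4 endothelial genes, 5 cells had 4 to 7, and 35 of 52 had all 4 genes, whereas 3 cells just outside the limit had 3 UMIs in at least 2 of the genes. A further 16 cells passed the endothelial limits but exceeded an upper limit, 5 for Ptprc, 6 for collagens and 6 for keratins. Inside the limits, 6 cells held 11 to 25 keratin UMIs, 3 held collagen UMIs and 2 held 1 Ptprc UMI. Of the 47 barcodes that occurred in both libraries, 1 belonged to these cells. This barcode had 10460 UMIs in the tumour library and 13189 in the LN library, and the LN cell met the same limits, with Fabp4 at 67 UMIs in the tumour cell and 0 in the LN cell, Igfbp3 at 54 and 0, and Egfl7 at 8 and 14.

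The label held on genes that had not been used to choose the cells. All 18 other pan-endothelial genes examined were detected, with a summed level of 7146 CPM against 234 CPM in the other 11804 primary tumour cells. Cd93, a C-type lectin family receptor of vessels, stood at 1042 CPM (939 to 1153) in 46 of 52 cells. Cldn5, the main claudin of endothelial tight junctions, stood at 580 CPM (504 to 664), with 207 UMIs over 40 cells, a median of 2 and a highest value of 20 UMIs in a cell. After thinning each cell to 1000 UMIs, which left out 2 shallower cells, an expected 41.9% of cells kept a Cldn5 UMI (76.9% unthinned), against 0% of the primary tumour T cells, whose median depth was 1934 UMIs. Emcn, the endothelial sialomucin endomucin, stood at 636 CPM (556 to 724), and Egfl7, a factor secreted by endothelium, at 742 CPM (656 to 837). The receptor tyrosine kinases Tie1 and Tek, through which angiopoietins act, stood at 252 CPM (203 to 310) and 64.4 CPM (40.8 to 96.7). Robo4, a guidance receptor restricted to vessels, stood at 101 CPM (70.6 to 140) in 22 cells.

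The 250 bases before the RefSeq start (GRCm38.p6) are shown for 3 of these genes because they differ in a short sequence that ETS family factors, the best known regulators of endothelial genes, can bind. Capitals mark the letters AGGAAG or, on the other strand, CTTCCT, and each sequence reads 5′ to 3′ on the strand of its gene. Tie1 lies on the minus strand (chr4:118489850-118490099, 1 match), Emcn on the plus strand (chr3:137340828-137341077, 2 matches) and Cldn5 on the plus strand (chr16:18776597-18776846, no match).
Tie1: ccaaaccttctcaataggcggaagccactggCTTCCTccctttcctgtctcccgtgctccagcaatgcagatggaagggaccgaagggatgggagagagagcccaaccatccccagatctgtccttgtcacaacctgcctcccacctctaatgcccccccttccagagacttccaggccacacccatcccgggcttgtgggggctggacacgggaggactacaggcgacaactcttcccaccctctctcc
Emcn: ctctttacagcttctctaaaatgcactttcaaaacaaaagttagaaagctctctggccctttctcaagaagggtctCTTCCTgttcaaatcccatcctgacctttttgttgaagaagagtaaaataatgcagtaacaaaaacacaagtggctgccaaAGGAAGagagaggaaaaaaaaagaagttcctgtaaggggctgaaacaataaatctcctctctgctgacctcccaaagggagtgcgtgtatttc
Cldn5: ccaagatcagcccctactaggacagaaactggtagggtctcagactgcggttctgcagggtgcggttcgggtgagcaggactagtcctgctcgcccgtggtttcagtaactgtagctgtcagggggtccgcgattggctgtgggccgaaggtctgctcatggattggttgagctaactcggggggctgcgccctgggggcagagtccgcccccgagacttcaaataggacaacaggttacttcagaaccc
Of the 18 pan-endothelial genes, 10 had a promoter in the table and 6 of these 10 held the letters. For the tip cell and capillary genes described below, 3 of 13 and 3 of 7 did. Among all genes the share was 32.3% (8734 of 27025), and among all windows of this length 29.5% (9686 of 32851). A match describes the letters and is no evidence of binding.

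**Figure D1:**
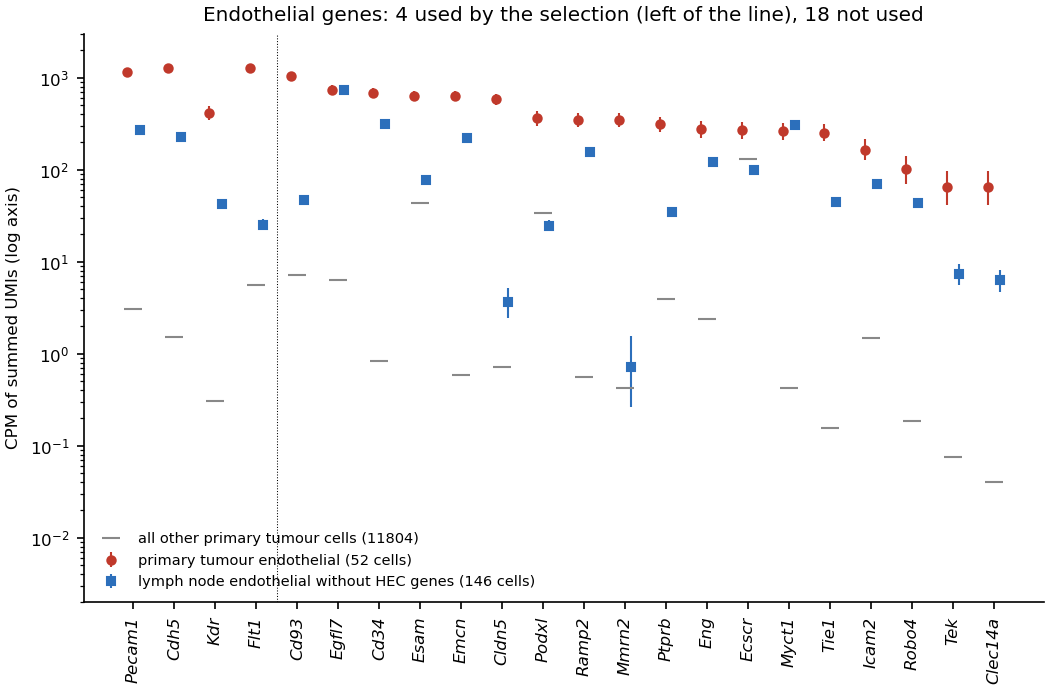
CPM of summed UMIs (log axis) of the 4 genes used to choose the cells and of 18 pan-endothelial genes that were not, in primary tumour endothelial cells (red circles, 52 cells), LN endothelial cells without HEC genes (blue squares, 146 cells) and all other primary tumour cells (grey dashes, 11804 cells), with exact Poisson 95% intervals for the endothelial classes. The red points lie above the grey dashes for all 22 genes, and Cldn5 and Mmrn2 are the genes with the widest gap between the endothelial classes.

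Transcripts of other cell types were low but not absent, and their part in the levels below was not tested. The cancer, fibroblast and leukocyte lists hold genes capped by the choice of cells (Krt8 and Krt18, Col1a1 and Col3a1, and Ptprc). Their low sums were therefore partly fixed by the choice. The tumour classes set against them were likewise chosen on genes of these lists. Of 10 cancer cell genes, 8 were detected, with a summed 479 CPM against 4523 CPM in the 5928 cancer cells and 706 CPM in T cells, in 29 of 52 cells at 0 to 34 UMIs per cell, and Tff1 and Cdh1 were at 0. Of 8 fibroblast genes, 6 were detected at a summed 311 CPM against 21423 CPM in the 77 fibroblasts, with Lum and Pdgfra at 0. Of 13 leukocyte genes, 9 were detected at a summed 137 CPM, against 9348 CPM in macrophages and 5715 CPM in T cells. Red cell genes summed to 47.6 CPM against 1765 CPM in T cells, and none of 4 adipocyte genes had a UMI. Of 8 platelet genes, 5 were at 0, and Pf4, which macrophages also held at 4297 CPM, gave 51 UMIs in 9 cells.

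Mural cell genes, 8 of 8 detected at a summed 465 CPM, had UMIs in 10 cells at 0 to 81 UMIs per cell. All 102 UMIs of Rgs5, the defining transcript of pericytes, lay in 4 cells (48, 42, 8 and 4 UMIs). The same 4 cells held all 15 UMIs of the pericyte receptor Pdgfrb, all 8 of Des and all 5 of Cspg4, and 33 of 37 UMIs of Mgp. Endothelial transcripts were present in them too, Fabp4 at 10669 CPM against 7741 CPM in the other 48 cells and Pecam1 at 468 against 1310 CPM. Levels of Rgs5 and Mgp therefore describe these 4 cells: without them Mgp fell from 104 to 13.9 CPM and Rgs5 to 0, an alternative chosen after seeing the data. The doublet caller Scrublet marked 1 of the 4.

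Capillary genes were held by nearly every cell, and 9 of the 10 examined were detected. Fabp4, a fatty acid carrier of capillary endothelium, stood at 8302 CPM (8006 to 8607), with UMIs in 51 of 52 cells, a median of 32.5 and a highest value of 254 UMIs per cell. In the fibroblasts, macrophages, T cells and cancer cells of the same tumours it stood at 210, 167, 3.69 and 5.79 CPM. The fatty acid transporter Cd36 stood at 753 CPM (666 to 849) in 40 cells, though macrophages had 379 CPM. Gpihbp1, which anchors lipoprotein lipase to the capillary wall, stood at 641 CPM (561 to 730) in 44 cells and was at 0 in macrophages and fibroblasts. Lpl itself, the lipase, stood at 89.6 CPM (61.3 to 127), close to the 78.7 CPM of all other tumour cells. The water channel Aqp1 (473 CPM, 405 to 550), the capillary genes Cd300lg (171 CPM, 131 to 219) and Btnl9 (137 CPM, 102 to 181) and the carbonic anhydrase Car4 (50.4 CPM, 29.9 to 79.7) were detected in 10 to 24 cells each. Mfsd2a, a lipid transporter of brain capillaries, was not detected.

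Sprouting and tip cell genes formed the second large group. All 14 tip genes examined were detected, and all but 2 cells held at least 1 UMI of the list. Igfbp3, an insulin-like growth factor binding protein, stood at 4790 CPM (4565 to 5022) in 44 cells with a median of 17.5 and a highest value of 211 UMIs. Esm1, the proteoglycan endocan and a tip cell marker, stood at 706 CPM (621 to 799), but its 252 UMIs lay in 21 cells, 13 of which held over 5 UMIs and 4 exactly 1. Angpt2, the TIE2 ligand that loosens vessels, stood at 303 CPM (248 to 365) in 21 cells, and the peptide ligand Apln at 269 CPM (218 to 328) in 16 cells. Pgf, a ligand of the VEGF receptor encoded by Flt1, stood at 510 CPM (438 to 589) in 24 cells. The Notch ligand Dll4 (238 CPM, 190 to 294) and the chemokine receptor Cxcr4 (238 CPM, 190 to 294) were found in 28 and 23 cells. Esm1, Apln and Angpt2 were therefore unevenly spread, while Igfbp3 and the adhesion molecule Mcam (535 CPM, in 42 cells) were held by most cells.

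Cells could be placed by vessel type only loosely, since the same cell often met several definitions. With at least 2 UMIs over Cd300lg, Gpihbp1, Car4 and Btnl9, 41 of 52 cells (78.8%, 65.3% to 88.9%) were capillary-like. With at least 2 UMIs over Esm1, Apln, Angpt2 and Trp53i11, 34 cells (65.4%, 50.9% to 78.0%) were angiogenic-like. The same threshold gave 16 venous-like cells (Ackr1, Selp, Vwf and Lrg1) and 10 arterial-like cells (Gja4, Gja5, Sema3g and Bmx), and 14 cells held at least 3 UMIs of cell cycle genes. Of the 34 angiogenic-like cells, 29 were also capillary-like (85.3%, or 70.7% of the capillary-like cells), and 4 cells were both arterial-like and venous-like. At 4 UMIs in place of 2, the counts were 29 capillary-like, 27 angiogenic-like, 6 venous-like and 5 arterial-like cells, so many cells lay near the threshold. Deeper cells met the definitions more often. The angiogenic-like cells had a median of 7248 UMIs against 2818 in the others, and the 3 cells with no vessel subset had a median of 940 UMIs. Among the 553 T cells of the tumour, 8 met the angiogenic and none the capillary, venous or arterial definition. Of the 146 LN endothelial cells without HEC genes that are compared further on, 135 met the angiogenic, 103 the venous, 9 the capillary and none the arterial definition, at over 10 times the depth.

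**Figure D2:**
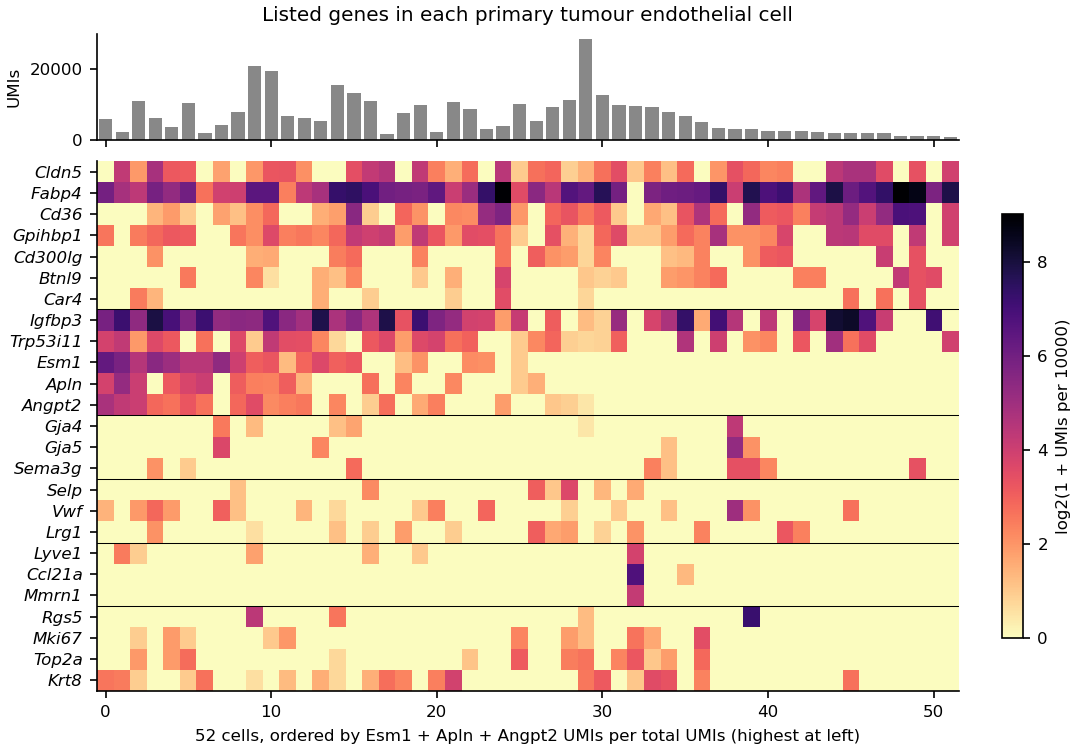
UMIs per cell (top) and log2(1 + UMIs per 10000) of vessel subset, lymphatic, mural, cycling and keratin genes (rows) in each of the 52 primary tumour endothelial cells (columns), ordered by the summed Esm1, Apln and Angpt2 UMIs per total UMIs. Fabp4 is present in 51 cells, the 21 cells with Esm1 lie in the left part among some without it, and Ccl21a and Mmrn1 are concentrated in 1 cell.

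The 21 cells with an Esm1 UMI and the 31 without were compared as a description, since the split was made on a gene of the same cells. The cells with Esm1 were deeper, with a median of 7645 against 3170 UMIs, and their part in the differences was not tested. CPM corrects for the summed depth of each set. Over all 3162 other genes with at least 20 UMIs, 4.65% were at least 2-fold higher and 6.86% at least 2-fold lower in the cells with Esm1, and the median log2 ratio was −0.03.

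Other tip genes went with Esm1. Of the 13 other tip genes, 6 were at least 2-fold higher in the cells with Esm1 and none was at least 2-fold lower, with a median log2 ratio of 0.76. Of the 6, Angpt2, Apln and Adm had 7, 11 and 7 UMIs in the cells without Esm1. They passed the filter through the cells with Esm1. Angpt2 stood at 560 CPM against 39.6 CPM (log2 ratio 3.73, 2.73 to 5.17), Apln at 471 against 62.3 CPM (2.86, 2.01 to 3.98), and Pgf at 854 against 159 CPM (2.41, 1.84 to 3.07). The vasodilator adrenomedullin, Adm, stood at 205 against 39.6 CPM, and Cxcr4 at 349 against 125 CPM. Dll4 and Trp53i11 differed less, Dll4 at 299 against 176 CPM (0.76, 0.11 to 1.46).

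Outside the tip list, the vasoconstrictor endothelin 1, Edn1, stood at 205 against 28.3 CPM in cells with and without Esm1. The leukocyte adhesion molecule Vcam1, a member of the venous list, stood at 211 against 56.6 CPM, the Notch target Hes1 at 410 against 164 CPM and Hey1 at 99.8 against 22.6 CPM. Among 10 chemokine genes with at least 20 UMIs, 5 were at least 2-fold higher in the cells with Esm1 and 1 at least 2-fold lower. All 5 had under 20 UMIs in the cells without Esm1 and so passed the filter through the cells with Esm1. These included the neutrophil attractant Cxcl2 at 588 against 90.6 CPM (2.66, 1.93 to 3.56) and the T cell attractants Cxcl9 at 299 against 108 CPM and Cxcl10 at 294 against 96.2 CPM. Transcripts of other cell types moved with this split, and their part was not tested. The cells without Esm1 held more Dcn, at 328 against 16.6 CPM, of which 34 of 58 UMIs lay in 1 cell, and more of the keratins capped by the choice of cells, Krt8 at 362 against 77.6 CPM and Krt18 at 272 against 88.7 CPM. Macrophage transcripts went the other way. Pf4 stood at 249.5 against 34.0 CPM, and 2 of the 3 cells with UMIs of the macrophage complement genes C1qa, C1qb or C1qc held Esm1. Without those 3 cells, an alternative chosen after seeing the data, 3 of the 10 chemokine genes were at least 2-fold higher and 1 lower, with Cxcl2 at 313 against 91.6 CPM, Cxcl9 at 289 against 97.3 CPM and Cxcl10 at 174 against 97.3 CPM. A single cell held 25 of the 53 Cxcl10 UMIs of the cells with Esm1, and without it Cxcl10 stood at 160 against 96.2 CPM. Basement membrane genes leaned the same way, 3 of 17 at least 2-fold higher and none lower, though 1 of the 3 was Mgp, with 28 of its 37 UMIs in 1 of the cells with Rgs5, and with fibronectin, Fn1, at 1098 against 419 CPM.

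Capillary genes were mostly between the 2-fold limits. Of 7 capillary genes, none was at least 2-fold higher, and only Aqp1 was at least 2-fold lower in the cells with Esm1 (299 against 651 CPM). Fabp4 stood at 7007 against 9625 CPM (−0.46, −0.56 to −0.35) and Cd36 at 621 against 889 CPM. Of 7 venous genes, 1 was at least 2-fold higher and 2 were at least 2-fold lower, with a median log2 ratio of 0.10. The 2 lower were the selectin Selp, stored in venous endothelium, at 5.54 CPM, from 1 UMI, against 147 CPM (−4.17, −10.09 to −2.13), and Lrg1 at 38.8 against 113 CPM (−1.48, −3.03 to −0.25). Outside the venous list, Lpl stood at 16.6 CPM, from 3 UMIs, against 164 CPM (−3.11, −5.66 to −1.61). Id1, a BMP target, stood at 183 against 481 CPM, whereas its relative Id3 stood at 632 against 249.1 CPM. MHC class I (0 of 10) and interferon genes (0 of 14) had no member past 2-fold in either direction.

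**Figure D3:**
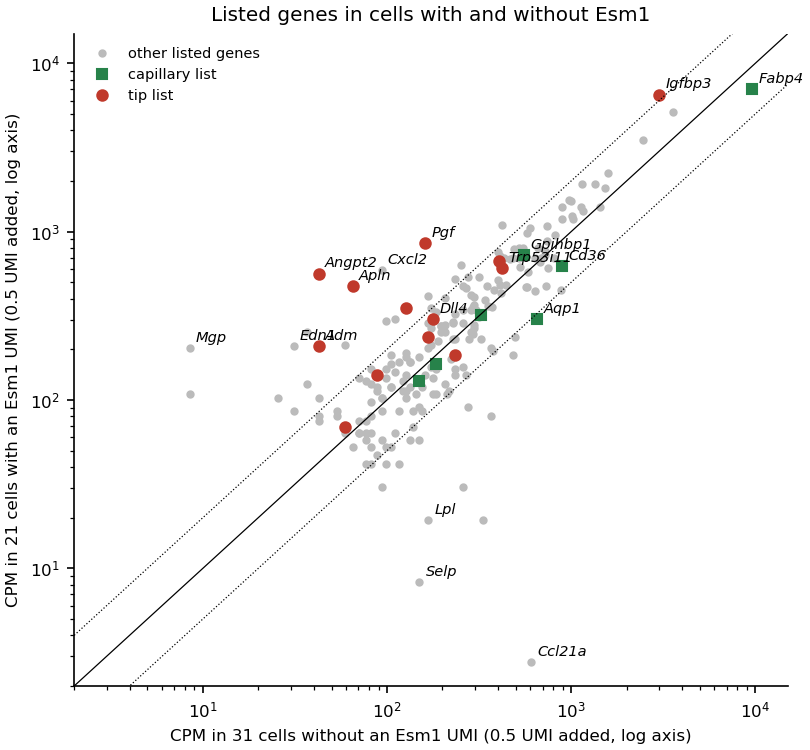
CPM of listed genes in the 21 primary tumour endothelial cells with an Esm1 UMI (vertical log axis) against the 31 without (horizontal log axis), with 0.5 UMI added, the solid line marking equality and the dotted lines 2-fold. Red circles are tip genes, green squares capillary genes and grey points other listed genes. Angpt2, Apln and Pgf lie above the upper dotted line, Fabp4 lies just below equality, and Selp and Lpl lie below the lower one.

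Arterial transcripts marked a small set. Gja5 and Gja4, the connexins of arterial gap junctions, gave 21 and 17 UMIs in 5 and 6 cells, and the secreted guidance cue Sema3g gave 24 UMIs in 9 cells, while Bmx and Gkn3 had none. Across the 10 arterial-like cells and the 42 others, 5.18% of 3163 genes were at least 2-fold higher and 10.2% at least 2-fold lower in the arterial-like cells. Arterial genes that had not defined these cells were higher in them. The ephrin ligand Efnb2 stood at 517 against 138 CPM (1.90, 1.25 to 2.57) and the Notch ligand Jag1 at 214 against 82.1 CPM. Efnb2 and Jag1 had 37 and 22 UMIs in the other cells and passed the filter on those alone. The elastic fibre protein Fbln5 stood at 326 against 26.1 CPM (3.57, 2.42 to 5.08) and Hey1 at 180 against 22.4 CPM. Fbln5 and Hey1 had 7 and 6 UMIs in the other cells. They passed the filter only with the UMIs of the arterial-like cells, where they were high. The transcription factors Epas1 (877 against 302 CPM) and Sox17 (169 against 78.3 CPM) and the endothelin receptor Ednrb (641 against 272 CPM) were also higher. Of 7 venous genes, 4 were also at least 2-fold higher in the arterial-like cells. They included Vwf at 225 against 52.2 CPM, Vcam1 at 304 against 78.3 CPM and Tspan7 at 371 against 179 CPM. The other was the venous fate gene Nr2f2, at 101 against 44.8 CPM (1.20, −0.25 to 2.55). Vwf and Nr2f2 had 14 and 12 UMIs in the other cells and likewise passed the filter only with those of the arterial-like cells. Another of the 7, Selp, was at least 2-fold lower, with 0 UMIs in the arterial-like cells and 27 in the others. Trp53i11 stood at 146 against 634 CPM and Apln at 101 against 325 CPM. Rgs5 moved with this set, at 1102 against 14.9 CPM, so mural transcripts and arterial transcripts shared cells here, and their separation was not tested.

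Venous transcripts were sparse. Ackr1, the chemokine scavenger that marks venules, gave 1 UMI, and Sele, the inducible E-selectin, gave 8 UMIs in 4 cells. Selp gave 27 UMIs in 7 cells and Vwf 34 UMIs in 17 cells. The leukocyte ligand Icam1 stood at 157 CPM (118 to 204) in 23 cells and Vcam1 at 134 CPM (99.1 to 178) in 18 cells. Only 6 cells held 4 or more venous UMIs. Between these and the other 46 cells, 8.09% of 3163 genes were at least 2-fold higher and 10.5% at least 2-fold lower. One of the 6 was the lymphatic-like cell described next. The guidance receptor Nrp2 stood at 469 against 161 CPM in the 6 cells (376 CPM without the lymphatic-like cell) and Cd36 at 256 against 829 CPM (322 CPM without it). Aqp1 stood at 916 against 406 CPM, but at 365 CPM without the cell that held 30 of its 43 UMIs; both omissions were chosen after seeing the data. Single cells carried much of this set, since all 12 of its Gja5 UMIs, 21 of its 24 UMIs of the monocyte attractant Ccl2 and 67 of its 92 Hspa1a UMIs each lay in 1 cell.

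One cell stood apart as lymphatic-like. With 9685 UMIs, it held 105 of the 106 UMIs of Ccl21a, the lymphatic chemokine, all 17 of Mmrn1, 13 of 23 of the hyaluronan receptor Lyve1 and the only UMI of Prox1, the lymphatic master regulator, but no Fabp4 and 1 Cldn5 UMI. It also held 1 Ptprc UMI and 8 Top2a UMIs, and Scrublet marked it. Without it Ccl21a fell from 297 to 2.88 CPM. Flt4, the VEGF-C receptor, is not a mark of this cell alone, since 18 other cells held 35 of its 41 UMIs.

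Of 9 HEC genes, 4 were detected and 5 were not. Glycam1, Chst4, Fut7, Gcnt1 and Madcam1 had no UMI in the 52 cells. The HEC definition was at least 4 UMIs over Glycam1, Chst4 and Fut7 with at least 2 of them detected. It follows that no cell met it (0 of 52, which by the exact interval allows up to 6.85%). In the 45 LN endothelial cells with HEC genes, Glycam1, a scaffold for L-selectin ligand, stood at 3439 CPM, Fut7 at 1145 CPM and Chst4 at 960 CPM. Those 45 cells were chosen on these 3 genes, so the levels describe the choice and are no result. Chst2 and B3gnt3, enzymes of the same sugar pathway with wider expression, gave 16 and 36 UMIs in the tumour endothelial cells. The 9 genes summed to 216 CPM, with UMIs in 35 cells, against 154 CPM in all other tumour cells. Alox12, the lipoxygenase studied in HEVs by this work, gave 6 UMIs in 5 cells, of which 5 were capillary-like, 3 venous-like and 3 positive for Esm1, and whose median depth was 11345 UMIs. After thinning, the expected share with an Alox12 UMI was 1.24% (9.62% unthinned), near the level of a single UMI, against 0% in T cells.

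At least 1 UMI of the 14 cell cycle genes was found in 34 of 52 cells, and 14 cells met the definition of at least 3 UMIs of the cycling markers. These 14 cells had a median of 9850 UMIs against 3262 in the other 38. Over 3163 genes, 5.98% were at least 2-fold higher and 5.09% at least 2-fold lower in the cycling cells. Of 18 pan-endothelial genes, 1 was at least 2-fold lower in them and none was higher. Among other vessel genes, Epas1 stood at 210 against 620 CPM (−1.54, −2.17 to −0.99), Cd36 at 394 against 1021 CPM and Sox17 at 39.4 against 147 CPM. Of 6 arterial genes, 4 were at least 2-fold lower, and of 10 chemokine genes 6 were, with none higher in either list. These 6 chemokine genes, and Gja5, Sema3g and Hey1, had under 20 UMIs in the cycling cells. They passed the filter with the UMIs of the other cells. Pf4, with 0 UMIs in the cycling cells and 51 in the others, and Rgs5, at 26.3 against 479 CPM, were lower too. Their part was not tested. Esm1 stood at 526 against 840 CPM and Igfbp3 at 3173 against 5992 CPM. The 14 cells include the deepest cell (28726 UMIs, 4 of Igfbp3 and none of Esm1) and the lymphatic-like cell (9685 UMIs, none of either). The part of these cells in the lower levels was not tested. The keratin Krt18, also used in the choice, and the fibroblast gene Dcn went the other way, Krt18 at 236 against 137 CPM and Dcn at 361 against 29.3 CPM, or 170 CPM without the cell that held 34 of its 55 UMIs in the cycling cells.

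The LN endothelial cells used for comparison were unusual, and this bears on each value that follows. The same rule found 221 cells in the LN library, of which 45 met the HEC definition. Another 146, called cells without HEC genes, had no Chst4 or Fut7 UMI and at most 1 Glycam1 UMI, and 30 were between. Those 146 had a median of 60744.5 UMIs per cell, over 10 times that of the tumour cells, 95 of them had over 6000 genes, the study's own upper limit for a cell, and 135 were cycling by the definition above. Cldn5 had UMIs in only 1 of all 221 cells, which alone held 380 of the 808 Fabp4 UMIs of the 146. The study also sequenced sorted LN vessel cells, and the labels do not say whether such cells are in this library. The part of depth, cell cycle and cell source in the differences was not tested.

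**Figure D4:**
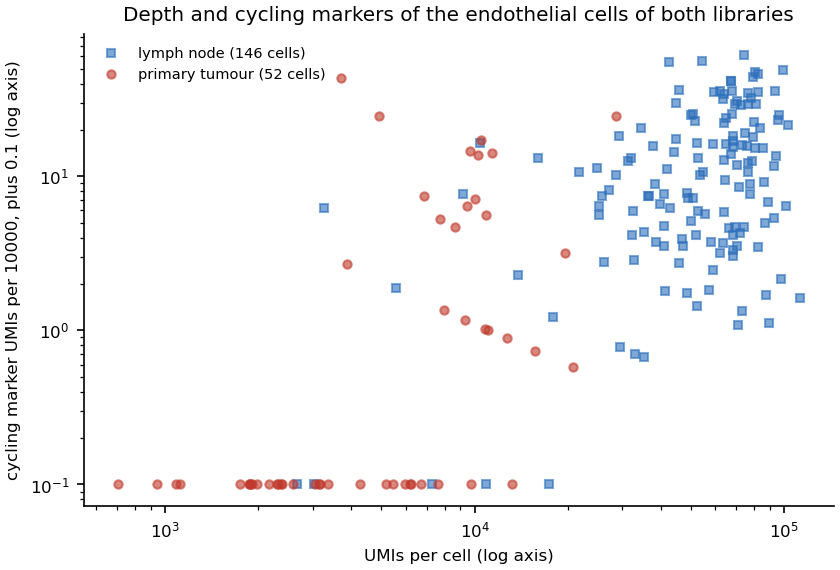
Cell cycle marker UMIs per 10000 UMIs, with 0.1 added (vertical log axis), against UMIs per cell (horizontal log axis) for 52 primary tumour (red circles) and 146 LN endothelial cells without HEC genes (blue squares). Most LN cells lie to the right of all tumour cells, whose deepest cell held 28726 UMIs, and 30 tumour cells lie at the bottom with no cycling UMI.

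Among the 10361 genes with at least 20 UMIs over both classes, 23.7% were at least 2-fold higher and 23.5% at least 2-fold lower in the tumour endothelial cells than in the 146 LN cells, with a median log2 ratio of 0.02. Of the 295 list genes that passed this filter, 47 had under 20 UMIs in the LN cells and so passed through their tumour UMIs, which fixes their direction. The counts that follow therefore cover only genes with at least 20 UMIs in the LN cells, a restriction chosen after seeing the data. Over all 10114 such genes, 22% were at least 2-fold higher and 24.1% at least 2-fold lower, with a median of −0.03. Of the 17 such pan-endothelial genes, none used to choose the cells, 15 were at least 2-fold higher and none was lower, with a median of 1.54. Egfl7 (742 against 727 CPM, log2 ratio 0.03, −0.15 to 0.21) and Myct1 (260.5 against 306 CPM, −0.23, −0.55 to 0.07) were the 2 between. Cldn5 had a log2 ratio of 7.31 (6.77 to 7.93). Mmrn2, a matrix protein around vessels and the pan-endothelial gene left out of the 17, had 6 UMIs in the LN cells and 125 in the tumour cells. The 2 arterial genes that also had 20 UMIs in the LN cells were Efnb2, at 232 against 23.8 CPM (3.29, 2.90 to 3.67), and Jag1, at 115 against 13.6 CPM (3.09, 2.53 to 3.61). Among capillary genes that did, Gpihbp1 had a log2 ratio of 6.64 (6.22 to 7.11) and Aqp1 of 6.93 (6.39 to 7.54). The 5 such capillary genes had a median of 6.64, and of the 9 such tip genes 7 were at least 2-fold higher and none was lower, with a median of 3.60. Between the 38 tumour and 11 LN cells that were not cycling, also chosen after seeing the data, the capillary median over genes with 20 UMIs in both classes together was 2.14. It was 3.66 without the LN cell with Cldn5, which held 380 of the 385 Fabp4 UMIs of those 11 cells.

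**Figure D5:**
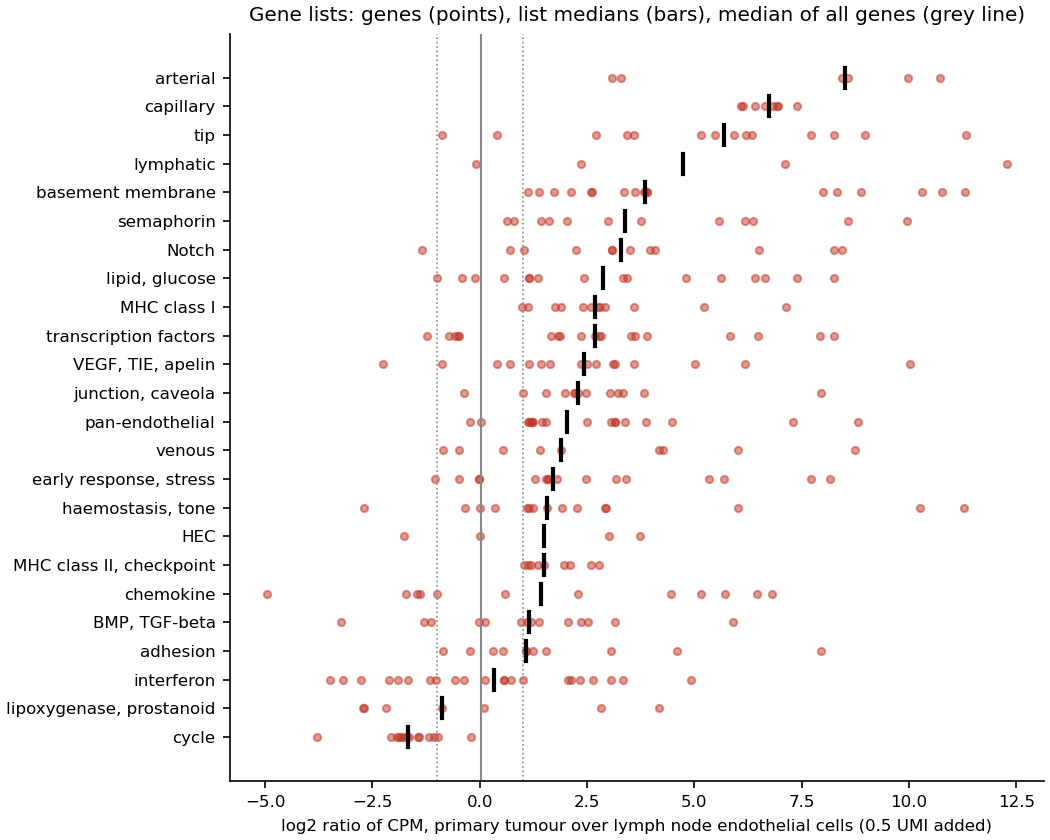
Log2 ratio of CPM in primary tumour over LN endothelial cells (horizontal axis, 0.5 UMI added) for each gene of 24 lists with at least 20 UMIs (points) with the median of each list (black bar). The grey line marks the median of all 10361 genes (0.02) and the dotted lines 2-fold. The arterial median (8.51, or 7.74 with genes at 0 set to their bound) lies furthest to the right, where 4 of its 6 genes had passed through their tumour UMIs, and the cell cycle median, at −1.67, furthest to the left. The lipoxygenase median of −0.88 turns to 0.43 with its 3 genes at 0 in the tumour cells set to their bound.

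Individual tip genes differed widely. With under 20 UMIs in the LN cells, so that the filter fixed their direction, Dll4 stood at 238 CPM against 0.721 CPM in the LN cells (8.26, 7.19 to 9.85) and Igfbp3 at 4790 against 1.80 CPM (11.33, 10.65 to 12.22). Of the tip genes free of that limit, Esm1 stood at 706 against 65.7 CPM (3.43, 3.20 to 3.64) and Angpt2 at 303 against 46.1 CPM (2.72, 2.39 to 3.02). Apln was between the 2-fold limits, at 269 against 494 CPM (−0.87, −1.19 to −0.59). Its receptor Aplnr, again under 20 UMIs in the LN cells, stood at 185 CPM against 0.120 CPM, 1 UMI (10.01, 8.06 to 15.91).

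Of 8 Notch genes, 6 were at least 2-fold higher and 1 was lower. The receptors Notch1 (232 CPM, 185 to 288) and Notch4 (143 CPM, 106 to 188), the feedback gene Nrarp (123 CPM, 89.6 to 165) and the target Hes1 (289 CPM, 235 to 350) had log2 ratios of 3.07, 3.97, 2.25 and 4.09. Rbpj, the DNA-binding partner of Notch, was the lower one (72.8 against 188 CPM, −1.34, −1.99 to −0.81).

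Of 15 endothelial transcription factors, 10 were at least 2-fold higher in the tumour cells and 1 was lower. The hypoxia factor Epas1 stood at 445 CPM against 4.93 CPM in LN cells (6.49, 6.00 to 7.03). The SOXF factor Sox7 stood at 311 against 25.5 CPM (log2 ratio 3.61). Its relatives Sox17 and Sox18, outside these 15, stood at 101 and 126 CPM against 0.360 CPM (3 UMIs) and 2.16 CPM (18 UMIs). Erg, an ETS factor that maintains endothelial identity, stood at 112 CPM (80.0 to 153) against 31.8 CPM (1.83, 1.30 to 2.30). The haematopoietic and endothelial factors Tal1, Gata2 and Hhex had 11, 10 and 8 UMIs, and only Hhex was past 2-fold, at 22.4 against 55.4 CPM (−1.22, −2.53 to −0.32). Nr2f2, which sets venous fate, stood at 58.8 against 84.3 CPM (−0.49, −1.22 to 0.10).

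Matrix genes were high in the tumour endothelial cells. The 18 basement membrane genes summed to 16140 CPM, against 21259 CPM in the fibroblasts and 1797 CPM in LN endothelial cells. The 14 with at least 20 UMIs in the LN cells were each past 2-fold higher, with a median of 3.49. The type IV collagen genes Col4a1 and Col4a2 stood at 2989 CPM (2812 to 3174) and 1641 CPM (1511 to 1780), above the fibroblasts' 1272 and 609 CPM. Sparc, a matrix glycoprotein, stood at 4342 CPM (4128 to 4563), below the fibroblasts' 6648 CPM. Igfbp7, deposited around tumour vessels, stood at 1675 CPM (1543 to 1815) against 3.48 CPM in LN cells. The laminin chains Lama4 and Lamb1 stood at 241 and 303 CPM, against 109 and 139 CPM in fibroblasts, and Nid2 at 227 CPM against 10.5 CPM. Mgp is the member carried by 4 cells.

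The endothelial barrier genes were also higher. Of 12 junction and caveola genes, 11 were at least 2-fold higher than in LN cells. Cav1, the coat protein of caveolae, stood at 776 CPM (687 to 873), and Plvap, which forms the diaphragms of fenestrated and leaky capillaries, at 667 CPM (585 to 757) in 43 cells, against 0.454 CPM in all other tumour cells. The tight junction gene Ocln had no UMI. The thinned share of cells with Plvap was 47.3% (82.7% unthinned), against 0% of T cells.

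Of 9 semaphorin and plexin genes, 7 were at least 2-fold higher and none was lower. Below that level in LN cells, Sema7a, a membrane-bound semaphorin, stood at 297 CPM (243 to 359) in 40 cells against 2 UMIs in the LN cells (9.96, 8.38 to 13.34), and Sema6a at 92.4 CPM (63.6 to 130) in 17 cells. Of the genes of VEGF, TIE and apelin signalling, 11 of 15 were at least 2-fold higher and 1 lower. Calcrl, the adrenomedullin receptor, stood at 98.0 CPM (68.3 to 136). The growth factor Vegfa itself had 8 UMIs, at 22.4 CPM (9.67 to 44.2), against 308 CPM in fibroblasts and 330 CPM in macrophages, and Vegfb was the lower one at 28.0 against 141 CPM in LN cells.

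BMP and TGF-beta genes were split, 7 of 13 at least 2-fold higher and 3 lower. Bmp4 stood at 33.6 CPM (17.4 to 58.7) against 331 CPM in LN cells (−3.24, −4.25 to −2.49). The other 2 lower genes, Smad6 and Bmper, rested on 1 and 0 UMIs in the tumour cells. The type I receptor Acvrl1, which transmits BMP9 signals in vessels, stood at 86.8 CPM (59.0 to 123) against 15.4 CPM. The BMP targets Id1 (331 against 333 CPM) and Id3 (443 against 226 CPM) had log2 ratios of −0.01 and 0.97.

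In haemostasis and vessel tone, 8 of 12 genes were at least 2-fold higher and 1 lower. Outside these 12, Ednrb, the endothelial endothelin receptor, stood at 364 CPM (304 to 432) in 33 cells against 2 UMIs in LN cells (10.25, 8.68 to 13.63). Nt5e, the enzyme CD73 that makes adenosine, stood at 148 CPM (111 to 194) in 19 cells against no UMI in the 146 LN cells, at least 412-fold higher by the floor of 3 UMIs. The nitric oxide synthase Nos3 was level, at 148 against 150 CPM (0.00, −0.44 to 0.38). Procr, the protein C receptor, was lower, at 151 against 984 CPM (−2.69, −3.12 to −2.32).

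Antigen presentation genes of class I were present at high level. H2-K1 stood at 1538 CPM (1412 to 1672) in 50 cells, against 8.32 CPM in the cancer cells and 2532 CPM in the T cells of the same tumours. B2m, the shared light chain, stood at 1919 CPM (1778 to 2068), against 1348 CPM in cancer cells, and H2-Q7 at 364 CPM (304 to 432) against 1.21 CPM. Compared with LN endothelial cells, 10 of 11 class I genes were at least 2-fold higher, with a median of 2.60. Over genes with 20 UMIs in both classes together the median was 1.22 without cycling cells, and 2.38 when the LN cell with Cldn5 was also left out.

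Class II transcripts were thin. Cd74, the invariant chain, stood at 258 CPM (208 to 316) in 16 cells, below the 751 CPM of cancer cells and the 4550 CPM of macrophages, and H2-Aa at 56.0 CPM (34.2 to 86.5) in 5 cells. The checkpoint ligand Cd274 gave 6 UMIs in 4 cells, Pdcd1lg2 8 UMIs in 4 cells and Fasl none, while Cd276 gave 39 UMIs in 21 cells. The 9 class II and checkpoint genes that could be compared were each at least 2-fold higher than in LN cells, with a median of 1.5 that moved to 0.28 without Scrublet-marked cells and turned to −0.61 without cycling cells.

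Of 7 chemokine genes with at least 20 UMIs in the LN cells, 1 was at least 2-fold higher (Cxcl2, log2 ratio 2.28) and 4 were lower, with a median of −1.39. Over the 12 genes with 20 UMIs in both classes together, 5 of which passed through their tumour UMIs, the median was 1.43. Cxcl9, one of these 5, stood at 204 CPM (160 to 257) in 16 cells against 2.28 CPM, whereas Cxcl10 stood at 196 CPM (153 to 248) against 516 CPM. Ccl5, which T cells held at 2734 CPM, stood at 56.0 CPM (34.2 to 86.5) against 1775 CPM. The decoy receptor Ackr3, another of the 5, stood at 78.4 CPM (52.1 to 113) against 2.16 CPM. Interferon-responsive genes were split, with 7 of 22 at least 2-fold higher and 8 lower, and a median of 0.34. Iigp1 and Irf1 were among the higher (log2 ratios 4.91 and 3.34), and Ifit3, Irf7 and Ifit1 among the lower (−3.49, −3.18 and −2.76).

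Of 15 lipid and glucose genes, 11 were at least 2-fold higher and none was lower. Besides Fabp4 and Cd36, the glycolytic regulator Pfkfb3 stood at 132 CPM (96.7 to 175) in 23 cells against 4.69 CPM in LN cells and 8.76 CPM in cancer cells. The glycolytic enzymes Ldha (608 against 809 CPM) and Pgk1 (560 against 1119 CPM) were between the 2-fold limits.

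Immediate early and heat shock genes, which rise with tissue dissociation as well as in tissue, were at least 2-fold higher in 11 of 15 cases and lower in 1. Outside these 15, Hspa1a stood at 597 CPM (519 to 682), against 2.04 CPM in LN endothelial cells, 1.79 CPM in cancer cells and 411 CPM in fibroblasts. Its 213 UMIs lay in 26 cells, of which 1 held 67 UMIs. Fos stood at 515 CPM (444 to 595) against 9.97 CPM in LN endothelial cells, 264 CPM in cancer cells and 1249 CPM in fibroblasts, while Jun was level between the endothelial classes, at 751 against 754 CPM. The part of digestion in these levels was not tested.

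Genes picked by size of change added names outside the lists. Against the LN cells, the 10 largest positive ratios belonged to Ccl21a and Rgs5 (at least 824-fold and 793-fold, each carried by the few cells described above), Igfbp3, Col15a1, Cd200, Ednrb, Sema7a, Inhbb, Trp53i11 and Igfbp7. Cd200, an immune inhibitory surface protein, stood at 367 CPM (307 to 435) in 35 cells, and Inhbb, an activin subunit, at 459 CPM (391.8 to 535) in 36 cells, against 1.85 and 0.949 CPM in all other tumour cells. The 10 largest negative ratios belonged to genes with no UMI in the tumour endothelial cells, which passed the filter through their LN UMIs alone. The chromatin protein Hmga2 stood at 560 CPM in 142 of the 146 LN cells, at least 66.7-fold lower in the tumour cells by the floor of 3 UMIs. Klra4, a gene of the natural killer receptor family, stood at 218 CPM in 137 of the LN cells (at least 25.9-fold lower in the tumour cells) and the cytokine Il24 at 105 CPM (at least 12.5-fold lower). The others were D030056L22Rik, Fez1, Atp1b1, Otud1, Atpaf1, Steap1 and Pdcd2.

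Against the other cells of the primary tumour, the 20 genes with the highest CPM ratio describe what the choice of cells selected. They were led by Rbp7, a retinol carrier (190 CPM, 148 to 241, against 0.0349 CPM), Sox18, Aplnr, Grrp1 and Arhgef15, and went on with Cyyr1, Tie1, Clec14a, Plvap, Kdr, Btnl9, Cd300lg, Tspan7, Fam167b, Emcn, Pcdh17, Adgrl4, Ttc9, Sox7 and Esm1. Of these 20, Kdr was used in the choice. Rbp7 was uneven, with 32 of its 68 UMIs in 1 cell, whereas Adgrl4, an adhesion receptor of sprouting endothelium, gave 116 UMIs over 40 cells (325 CPM, 269 to 390).

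In the GRCm38 annotation, Esm1 lies on chr13:113209659-113218098 (plus strand), Igfbp3 on chr11:7206086-7213923 (minus strand), Fabp4 on chr3:10204088-10208576 (minus strand), Gpihbp1 on chr15:75596628-75599481 (plus strand) and Plvap on chr8:71497765-71511752 (minus strand).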

How the data were processed

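Single-cell RNA-seq was measured by the authors in 1 primary tumour library (12427 barcodes, 173317475 UMIs) and 1 LN library (11617 barcodes, 122207852 UMIs). The deposited matrices held counts, whole UMIs per gene and cell, made with Cell Ranger (version 5.0.0 per the file headers, 2.1.1 in the submitters' processing notes) on GRCm38. Gene symbols were used as deposited, for 22620 genes.

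Of these barcodes, 11856 and 11449 passed the cell limits (over 200 genes, mitochondrial UMIs at most 10%). Putative doublets were kept in the main analysis. Scrublet (scanpy 1.11.5, expected rate 6%) served as an alternative and marked 703 tumour cells but 0 LN cells, so in the LN library it did not work. UMIs were summed over cells and given as CPM. Log2 ratios had 0.5 UMI added and an exact interval for the split of the 2 counts. Ratios were formed for genes with at least 20 UMIs over both classes, and list counts against LN cells used genes with at least 20 UMIs in the LN cells alone. No test was possible with a single library of each tissue, and a gene was counted as higher or lower past 2-fold. Comparison classes in the tumour were defined by marker UMIs (5928 cancer cells, 77 fibroblasts, 161 macrophages, 553 T cells). The interval and ratio code was tested on simulated data.

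Genes named were those of 31 lists (378 of 380 genes matched), the 10 highest and 10 lowest ratios against LN cells among genes with at least 100 UMIs, and the 20 highest against the other tumour cells among genes in at least 25% of the cells. The members and lists were chosen with earlier results of these data known. Sequences and promoters were from RefSeq GRCm38.p6, and gene positions from the GRCm38 annotation. Python 3.11, numpy and scipy were used. One listed gene is not reported here.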

Additional observations from a re-analysis of the deposited data

How the results depend on the processing

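Each library was a single pool, so the spread between mice is unknown, and leaving out a replicate was not possible. No paired analysis was possible because the primary tumour and LN groups hold 1 library each. Depth limits rare transcripts: 1 UMI equals 2.80 CPM in the tumour endothelial cells and 0.120 CPM in the LN endothelial cells.

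The number of cells was 46 under the study's own limits (at most 6000 genes and 5% mitochondrial UMIs), 47 with at least 8 marker UMIs, 48 with at least 3 marker genes, 46 with under 6 keratin UMIs, 48 without Scrublet-marked cells and 68 without upper limits. Without upper limits, angiogenic-like cells numbered 43 and capillary-like cells 52, and at 4 subset UMIs capillary-like cells numbered 29. Genes at least 2-fold higher than in LN cells numbered 2457 of 10361 (23.7%), and 1381 of 7490 (18.4%) with at least 100 UMIs. Genes at least 2-fold lower numbered 2433 (23.5%), and 1549 of 7736 (20.02%) under the study's limits. Alternatives chosen after seeing the data gave 1576 lower genes of 7830 (20.1%) with LN cells of at most 6000 genes, and 901 higher (29.2%) against 511 lower genes (16.5%) of 3088 without cycling cells. With the mean of single-cell CPM the split was 2314 higher against 3158 lower.

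List medians over genes with 20 UMIs in both classes together changed sign 7 times in 345: HEC genes at −1.33 with all LN endothelial cells, which adds back the cells set aside for these genes; chemokines at −0.012 (LN cells of at most 6000 genes) and −0.54 (without cycling cells); class II and checkpoint genes at −0.61 (without cycling cells); leukocyte markers at −0.43 (study limits), −0.65 (without Scrublet-marked cells) and −0.57 (LN cells of at most 6000 genes). The causes of the others were not tested. Another 72 medians moved beyond their spread and 266 did not. Of 400 single-gene levels, 301 stayed within their interval and 99 moved, among them Cd36 (753 CPM, 1299 as the mean of single-cell CPM) and Lyve1 (64.4 CPM, 28.8 without the lymphatic-like cell).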
